A study of Mus musculus with 71 samples.

Results

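The genes Igf2bp1, Igf2bp2, and Igf2bp3, which encode the insulin-like growth factor 2 mRNA-binding proteins, and the long noncoding RNA gene 4930463O16Rik were followed in the intestine of Btnl2-KO and WT mice. These are 4 of the 24475 gene identifiers in each of 3 bulk RNA-sequencing tables. They were chosen by measured values, the higher levels of Igf2bp3 and 4930463O16Rik in colon tissue of Btnl2-KO than of WT mice, so that contrast is given as a description, with no test. All mice were C57BL/6, and they were female cohoused littermates. Btnl2-KO mice were Btnl2-/- and carried a LacZ cassette joined in frame to the Btnl2 start codon and a selection cassette, in every cell of the body. Whole tissue from young mice, whose age the labels give no further, made up 7 libraries of Btnl2-KO and 7 of WT small intestine and 7 of Btnl2-KO and 6 of WT colon. Intestinal epithelial cells (IECs) of 7-week-old mice made up 2 Btnl2-KO and 3 WT libraries of the duodenum, 3 and 3 of the jejunum, and 3 and 2 of the ileum. Intraepithelial lymphocytes (IELs), sorted as γδ T cells from mice that the labels give as 10 weeks old, made up 3 Btnl2-KO and 4 WT libraries of the duodenum, 4 and 4 of the jejunum, and 3 and 4 of the ileum, with 2 mice pooled in each. A further 6 single-cell libraries of γδ IELs held 1 library for each segment and genotype, each a pool of mice that the labels give as 8 to 10 weeks old; the study describes such pools as part of the cells sorted for bulk sequencing, so the single-cell and bulk IEL libraries may share mice. The study describes no separate mice for each segment of IECs and IELs or for colon and small intestine tissue. The labels tie no segment or tissue to a mouse. Tests between segments or between tissues therefore treat libraries that may share mice as independent, and all p-values measure the spread between these libraries.

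The Igf2bp proteins bind mRNAs in the cytoplasm through RNA recognition motifs and KH domains and act on the stability, translation, and localisation of their targets, among them Igf2, Myc, and Actb transcripts. Igf2bp1 and Igf2bp3 are known as oncofetal genes: they are abundant in the embryo, fall to low levels in most adult tissues, and return in many tumours, whereas Igf2bp2 stays expressed in adult tissues. The let-7 microRNAs repress the family and Lin28 proteins block let-7 maturation, and the proteins are also described as readers of N6-methyladenosine on mRNA. The annotation holds 4930463O16Rik as a long intergenic noncoding RNA, and no role is given for it here.

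The name under which the genes were grouped calls the noncoding RNA a neighbour of the family, and the annotation goes against it. In GENCODE M21 on the GRCm38 build, Igf2bp3 lies on chromosome 6 from 49085223 to 49214957, minus strand, with 17 exon blocks. The gene 4930463O16Rik lies on chromosome 10 from 84488293 to 84497435, plus strand, with 4 exon blocks. Igf2bp1 is on chromosome 11 from 95957163 to 96005940 and Igf2bp2 on chromosome 16 from 22059009 to 22163299, both on the minus strand. None of the 4 genes shares a chromosome with another or with Btnl2, which is on chromosome 17. The transcripts of Igf2bp2, Igf2bp3, and 4930463O16Rik shared no stretch of at least 50 identical bases on the same strand with a transcript of another gene, and those of Igf2bp1 shared 92 bases with the microRNA gene Mir3063 inside it.

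The start regions of Igf2bp3 and 4930463O16Rik are shown because these were the transcripts that moved together in tissue. Each stretch holds 250 bases before the start and the first 30 bases of the transcript, taken from RefSeq on GRCm38.p6, with chr6:49214925-49215204 on the minus strand for Igf2bp3 and chr10:84488043-84488322 on the plus strand for 4930463O16Rik. Capitals mark the motifs CACGTG (the E-box that MYC and related factors can bind), CCAAT, and TATATAA, found on either strand and chosen with the sequences in view.
Igf2bp3: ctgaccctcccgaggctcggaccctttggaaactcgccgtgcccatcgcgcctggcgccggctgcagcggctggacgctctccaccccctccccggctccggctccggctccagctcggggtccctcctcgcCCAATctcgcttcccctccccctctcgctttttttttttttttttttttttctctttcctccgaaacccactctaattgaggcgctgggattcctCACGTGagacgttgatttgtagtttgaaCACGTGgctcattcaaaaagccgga
4930463O16Rik: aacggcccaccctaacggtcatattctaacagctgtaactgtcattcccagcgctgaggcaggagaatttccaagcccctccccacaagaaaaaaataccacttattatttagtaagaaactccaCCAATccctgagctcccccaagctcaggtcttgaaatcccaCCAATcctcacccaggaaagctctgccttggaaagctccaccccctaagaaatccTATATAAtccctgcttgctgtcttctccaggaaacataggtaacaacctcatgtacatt
The Igf2bp3 region held CACGTG at 23 to 18 bases before the start and again at bases 6 to 11 of the transcript, and CCAAT at 118 to 114 bases before the start. The 4930463O16Rik region held no CACGTG; it held TATATAA at 29 to 23 bases before the start and CCAAT at 125 to 121 and at 84 to 80 bases before it. Of 32851 start regions of the same length, 6.79% held CACGTG, 36.1% CCAAT, and 3.17% TATATAA. The GC content was 58.9% for Igf2bp3 and 47.1% for 4930463O16Rik, against a median of 52.5% over all regions, and the longest run the pair shared on the same strand was 11 bases. TATAAA and GGGCGG were also searched, and neither was in these 2 regions; GGGCGG was in the Igf2bp2 region, which has 77.5% GC, at 2 places on the opposite strand. A start region of Igf2bp1 was not used here.

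Library totals were 13619314 to 21708727 expected counts in tissue, 15397757 to 38258478 in IECs, and 13444964 to 30029485 in IELs. Levels are counts scaled to library size (CPM), with TMM factors. The deleted gene, Btnl2, was at 23.9 to 103 CPM in WT small intestine and 0.674 to 2.44 CPM in Btnl2-KO small intestine, and at 0.651 to 2.40 CPM in WT colon with 6 of 7 Btnl2-KO colon libraries at 0. Some libraries stood apart from their labels. In small intestine tissue, WT replicates 2 and 3 held the colonic gene Car1 at 846 and 1624 CPM, against at most 0.610 CPM in the other small intestine libraries, and Btnl2-KO replicate 1 and WT replicates 5 and 7 held the proximal gene Gata4 at 95.6, 82.7, and 15.1 CPM. Among IECs, the ileal gene Fabp6 was at 220 CPM in Btnl2-KO duodenum replicate 1, which held Btnl2 at 5.45 CPM against 0.342 CPM in replicate 2, and at 0.231 CPM in Btnl2-KO ileum replicate 1, and Btnl2-KO jejunum replicate 2 held Btnl2 at 19.5 CPM and Fabp6 at 484 CPM. Among IELs, Btnl2-KO jejunum replicate 3 held Fabp6 at 32.6 CPM, against at most 4.44 CPM in the other jejunal libraries.

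In colon tissue, both Igf2bp3 and 4930463O16Rik were higher in every Btnl2-KO library than in any WT library. Igf2bp3 was at 27.9 CPM in the lowest Btnl2-KO library, at 31.0 CPM in the median, and at 84.1 CPM in the highest, against 9.06, 11.5, and 14.2 CPM in WT libraries. The noncoding RNA 4930463O16Rik was at 7.23, 10.8, and 29.6 CPM in Btnl2-KO libraries, against 0.592, 0.803, and 1.20 CPM in WT libraries. The highest Btnl2-KO library was replicate 2 for both genes, and the other 6 Btnl2-KO libraries stayed within 27.9 to 37.4 CPM for Igf2bp3 and 7.23 to 12.7 CPM for 4930463O16Rik.

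On the log2 scale, the fold change of Btnl2-KO against WT colon was 3.91 (SE 0.36) for 4930463O16Rik and 1.72 (SE 0.26) for Igf2bp3. These were the 1st and the 11th largest of 14871 genes fitted. Over all genes, 0.0269% passed an FDR below 0.05 and a fold change above 1.5, 0.0134% in each direction, and Btnl2-KO libraries lay above all WT libraries for 0.0605%. Since the contrast chose the genes, nothing further is read from these ranks and shares.

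The other 2 family members did not follow Igf2bp3 in colon. Igf2bp2 was at 25.7, 37.6, and 43.9 CPM (lowest, median, highest) in Btnl2-KO colon and at 24.6, 31.8, and 45.8 CPM in WT colon, a log2 fold change of 0.07 (SE 0.16). Igf2bp1 was at 0.486, 0.746, and 1.22 CPM in Btnl2-KO and 0.646, 1.15, and 1.54 CPM in WT colon, a log2 fold change of -0.48 (SE 0.26). The groups overlapped for both.

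**Figure D1:**
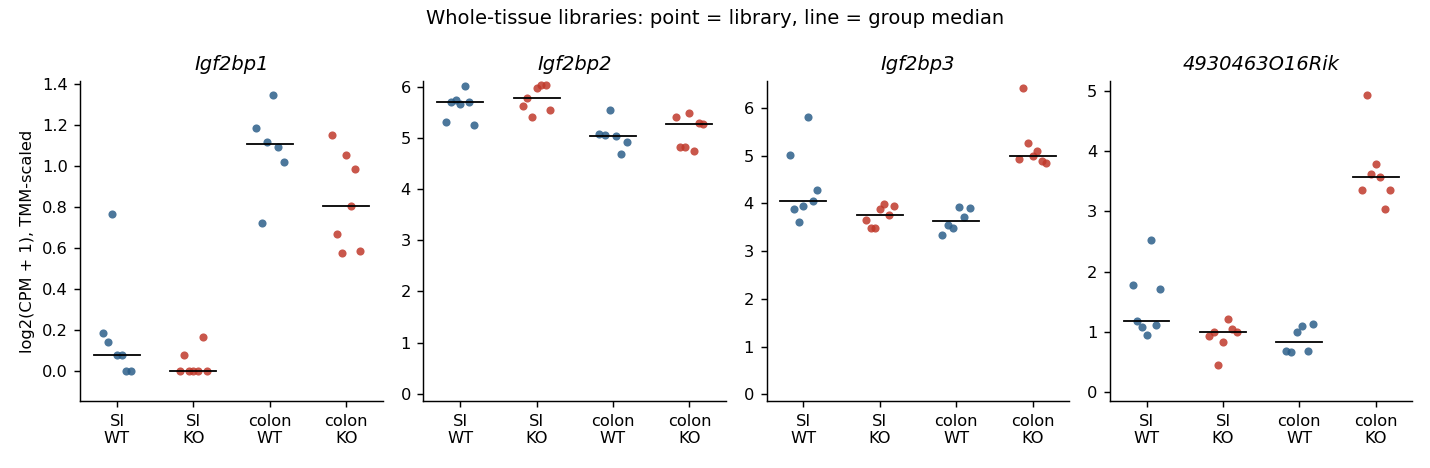
Level of each gene in the 27 whole-tissue libraries, as log2(CPM + 1) on the y axis with its own scale in each panel, by tissue (SI, small intestine) and genotype (red, Btnl2-KO; blue, WT). In colon the Btnl2-KO libraries of Igf2bp3 (27.9 to 84.1 CPM) and 4930463O16Rik (7.23 to 29.6 CPM) lie above all WT libraries, while those of Igf2bp1 and Igf2bp2 overlap with WT.

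Per kilobase of exon, the spacing of the genes in colon differed between genotypes, given as a description since these values chose the genes. In WT colon, Igf2bp2 stood at 4.42 ± 0.955 CPM per kilobase (SD, n = 6), Igf2bp3 at 1.44 ± 0.256, 4930463O16Rik at 0.411 ± 0.137, and Igf2bp1 at 0.117 ± 0.0305. In Btnl2-KO colon, 4930463O16Rik stood at 6.16 ± 3.63 CPM per kilobase (SD, n = 7), Igf2bp3 at 4.76 ± 2.48, and Igf2bp2 at 4.66 ± 1.02, which do not differ beyond their spread, and Igf2bp1 at 0.0825 ± 0.0305. Relative to Igf2bp3 the noncoding RNA was higher in Btnl2-KO colon, with no overlap between the genotypes. This restates its larger fold change in the contrast that chose both genes and is no further result. The noncoding RNA was at 25.2 to 40.9 CPM per 100 CPM of Igf2bp3 in Btnl2-KO colon (median 32.2) and at most at 9.71 in WT colon (median 7.38). In small intestine this ratio was 3.65 to 9.89 (median 7.84) in Btnl2-KO and 6.42 to 12.2 (median 8.64) in WT libraries, and these overlapped with WT colon.

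The nearest genes of both loci that the colon fit held were not called. Around Igf2bp3 these were Malsu1, which overlaps it by 53927 bases in RefSeq, Gpnmb, Tra2a, and Ccdc126, with log2 fold changes of -0.14 (SE 0.22), -0.21 (SE 0.23), 0.00 (SE 0.10), and -0.19 (SE 0.18). Around 4930463O16Rik they were Nuak1, at 0.14 (SE 0.12), 1500009L16Rik, at 0.34 (SE 0.20), and Ckap4, at 0.12 (SE 0.15), while Platr7 was not tested. In edgeR's quasi-likelihood test, the lowest Benjamini-Hochberg adjusted p of the 7 genes was 0.972.

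The summed markers of the cell types named here overlapped between colon genotypes. The summed level of 12 of 12 pan-epithelial markers was 10913 to 16219 CPM in Btnl2-KO and 11230 to 13094 CPM in WT colon. That of 8 of 8 smooth muscle markers was 2954 to 7581 CPM (median 3996) against 4727 to 6589 CPM (median 5725), and that of 9 of 9 enteric neuron and glia markers was 32.7 to 57.6 CPM (median 41.6) against 47.6 to 66.6 CPM (median 58.1). The summed level of 6 of 6 germ cell markers was at most 1.15 CPM in Btnl2-KO and at most 0.670 CPM in WT colon, with Tnp1, Prm2, and Acrv1 at 0 in every tissue library. The part of muscle and neuronal content in the result was not tested. Fewer cells of a type and less RNA per cell cannot be told apart in such tissue. The distal gene Hoxd13 was highest in Btnl2-KO replicates 2, 3, and 5 and WT replicate 5, at 43.3 to 79.1 CPM against at most 15.5 CPM in the other colon libraries. Without these 4 libraries, chosen after the values were seen, the log2 fold change was 1.31 (SE 0.13) for Igf2bp3 and 3.40 (SE 0.24) for 4930463O16Rik.

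In small intestine tissue, whose Btnl2-KO libraries did not enter the choice, the direction was the opposite and the difference did not pass the test. Igf2bp3 was at 10.2, 12.5, and 14.9 CPM (lowest, median, highest) in Btnl2-KO and at 11.3, 15.5, and 55.3 CPM in WT libraries. The noncoding RNA was at 0.375, 1.01, and 1.32 CPM against 0.928, 1.26, and 4.78 CPM. For both genes the groups overlapped, and the highest WT libraries were replicates 5 and 1, with Igf2bp3 at 55.3 and 31.4 CPM and 4930463O16Rik at 4.78 and 2.44 CPM.

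The log2 fold change of Btnl2-KO against WT small intestine was -0.87 (SE 0.31) for Igf2bp3, with an edgeR adjusted p of 0.142, and -1.09 (SE 0.37) for 4930463O16Rik, with an edgeR adjusted p of 0.134. Of 14866 genes, 3 (0.0202%) were called, 0.0135% higher and 0.00673% lower, and none of the 3 members fitted was among them. Igf2bp2 was at 41.2, 53.7, and 64.8 CPM in Btnl2-KO and 36.9, 50.9, and 63.1 CPM in WT libraries. Its log2 fold change was 0.14 (SE 0.13), with an edgeR adjusted p of 0.508. Igf2bp1 was below the count minimum, at 0 in 5 of 7 Btnl2-KO and 2 of 7 WT libraries and at most at 0.701 CPM. Its mean log2(CPM + 1) was 0.14 lower in Btnl2-KO libraries (exact two-sided permutation test, p = 0.156, adjusted p = 0.622 over 16 such tests, smallest p the design allows 0.000583).

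These small intestine values turned on the libraries that stood apart. Leaving out the libraries that held Car1 or Gata4 was chosen after the values were seen. Without WT replicates 2 and 3, which held Car1, the fold change of Igf2bp3 was -1.11 (SE 0.30). It passed the call in edgeR, close to the limit, with an adjusted p of 0.0485. In 21 of 22 alternatives Igf2bp3 stayed uncalled, so this call stands alone. The fold change of 4930463O16Rik without the same libraries was -1.30 (SE 0.38) with an edgeR adjusted p of 0.0584. Without the 3 libraries that held Gata4, the values were -0.46 (SE 0.24) and -0.56 (SE 0.31), with edgeR adjusted p of 0.496 and 0.532. Without WT replicate 5 alone they were -0.49 (SE 0.20) and -0.71 (SE 0.29), with edgeR adjusted p of 0.203 and 0.194. The Gata4-holding Btnl2-KO library, replicate 1, had Igf2bp3 at 11.6 CPM, within the range of the other Btnl2-KO libraries. The colon and small intestine contrasts use different libraries, which may come from the same mice. The difference between these contrasts was not tested, since the colon values chose the genes.

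Within groups of tissue libraries, where genotype is constant, Igf2bp3 and 4930463O16Rik moved together most clearly in WT small intestine. Gut region may vary in that group, since some of its libraries held Car1 and others Gata4. Replicate 5, which held Gata4, was the highest for both genes, and the part of region in the relation was not tested. Over the 7 libraries there, Pearson's r of log2(CPM + 1) was 0.947 (exact permutation p = 0.00238, adjusted p = 0.0429 over 18 relations) and Spearman's rho was 0.821 (exact permutation p = 0.0341, adjusted p = 0.432). Without the 2 libraries farthest from the median, r was 0.721, and no relation had an adjusted p below 0.05 in the exact permutation test with a pseudocount of 0.5 or without TMM factors. In Btnl2-KO colon, r was 0.952 and rho 0.786, and r fell to 0.569 without 2 libraries, replicate 2 among them. Levels in colon chose this pair, so its colon values are a description with no test. The 18 relations of the adjustment include those in colon.

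The relation was not seen in the same way in the remaining groups. In WT colon (6 libraries), again as a description, r was 0.666 and rho 0.486, and r was -0.15 without 2 libraries. In Btnl2-KO small intestine (7 libraries), r was 0.570 (exact permutation p = 0.178, adjusted p = 0.458) and rho 0.571 (exact permutation p = 0.200, adjusted p = 0.600), and r was -0.27 without 2 libraries. The relation in these 2 groups rests on the libraries left out. Igf2bp3 with Igf2bp2 gave r from -0.58 to 0.475 over the 4 groups, with no adjusted p below 0.364 by the exact permutation test, and no other pair passed the threshold.

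**Figure D2:**
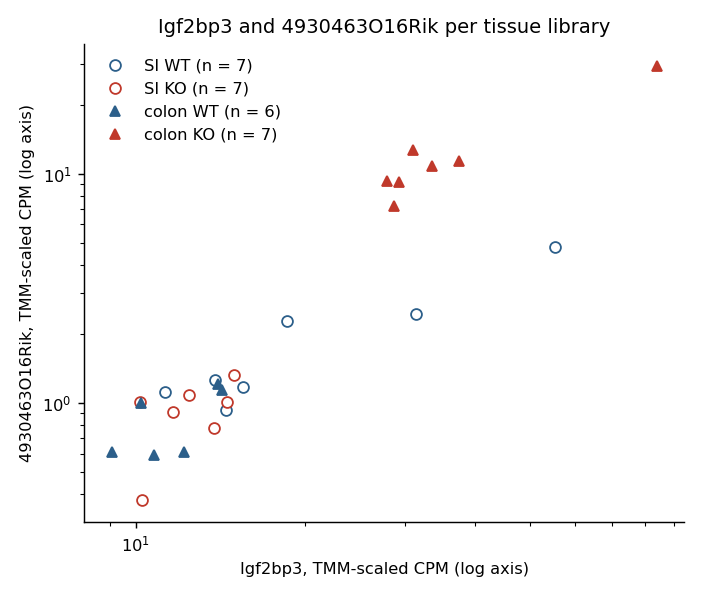
Igf2bp3 (x axis) against 4930463O16Rik (y axis), in CPM on log axes, in the 27 whole-tissue libraries; circles are small intestine, triangles colon, red Btnl2-KO, and blue WT. Btnl2-KO colon libraries form a separate group above the others, with 25.2 to 40.9 CPM of the noncoding RNA per 100 CPM of Igf2bp3, and WT small intestine replicates 5 and 1 lie farthest to the right of the remaining libraries.

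Over all 27 tissue libraries, each of the 2 genes was the gene most like the other among 15539 genes (Pearson's r = 0.910, Spearman's rho = 0.879, given as a description since the libraries include the contrast that chose them). Next for Igf2bp3 came Utp3 (r = 0.852), Rad51c (r = 0.833), Sumo2 (r = 0.814), and Sfr1 (r = 0.805). Next for 4930463O16Rik came Kcnq1ot1 (r = 0.773), Atrx (r = 0.770), Rad51c (r = 0.769), and Gpatch1 (r = 0.738). Rad51c, a gene of homologous recombination repair, was on both lists. The genes most like Igf2bp2 were Isx (r = 0.908) and Cdx2 (r = 0.901), which encode intestinal homeobox factors, Slc6a6 (r = 0.893), Padi2 (r = 0.888), and Myo1d (r = 0.887). Those most like Igf2bp1 were Vsig2 (r = 0.933), Cdhr1 (r = 0.925), Sstr1 (r = 0.920), Aqp8 (r = 0.919), a water channel of colonic epithelium, and Sult1a1 (r = 0.919). These libraries share tissue and depth, which such values also follow.

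Between WT tissues, the family members differed in where they were higher. Colon and small intestine libraries may share mice, and the tests here treat them as independent. Igf2bp1 was at 0.646 to 1.54 CPM in WT colon and at 0 to 0.701 CPM in WT small intestine, with replicate 3 of the small intestine, a library that held Car1, above the lowest colon library. Its log2 fold change of colon against small intestine was 2.89 (SE 0.58), with an edgeR adjusted p of 0.000901. It was 4.44 (SE 0.48) without the 2 libraries that held Car1, left out after the values were seen, with an edgeR adjusted p of 1.24e-05. The gene was above the count minimum through colon, where it is high, with 12 to 27 counts against 0 to 12 in small intestine; with no filter on low counts the value was 2.89 (SE 0.59) with an edgeR adjusted p of 0.00125. Igf2bp2 was lower in colon, at 24.6 to 45.8 CPM against 36.9 to 63.1 CPM, by a log2 fold change of -0.60 (SE 0.15) with an edgeR adjusted p of 0.00354, and the groups overlapped. This fold change was close to the limit of 1.5 and fell under it in 5 of 20 alternatives: without WT colon replicate 5 or 6, without WT small intestine replicate 3 or 5, and without both libraries that held Car1, at -0.57 with an edgeR adjusted p of 0.0156. In this comparison 27.6% of 15162 genes were called, 12% higher and 15.6% lower in colon, so that a call is common. Igf2bp3 and 4930463O16Rik, given here as a description, had log2 fold changes of -0.99 (SE 0.34) and -1.25 (SE 0.39), lower in colon; WT small intestine replicate 5 again held the highest values.

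In IECs, where pan-epithelial markers summed to 8418 to 14315 CPM and 5 of 6 T cell markers in the table to at most 72.4 CPM, all members but Igf2bp1 were above the count minimum. Igf2bp2 was the highest per kilobase, at 4.10 ± 1.95 CPM per kilobase (SD, n = 3) in WT duodenum, with Igf2bp3 at 1.53 ± 0.604 and 4930463O16Rik at 0.559 ± 0.270, and no mean ± SD overlapped with that of the next gene. Igf2bp1 held at most 5 counts in any IEC library.

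Igf2bp3 in IECs was highest in WT duodenum. It was at 15.1, 15.5, and 6.77 CPM there, at 2.51, 3.95, and 8.96 CPM in WT jejunum, and at 2.95 and 4.44 CPM in WT ileum. Both ileal libraries lay below all duodenal ones, which was so for 19.5% of genes, and the log2 fold change of ileum against duodenum was -1.74 (SE 0.44) with an edgeR adjusted p of 0.0835, which misses the call; DESeq2 and limma-voom called it, as did edgeR without WT duodenum replicate 2 or 3. Jejunum against duodenum gave -1.27 (SE 0.50) with an edgeR adjusted p of 0.416. In none of the 3 WT IEC comparisons was a member called, where 0.32% of genes were in jejunum against duodenum (0.168% higher, 0.152% lower), 4.42% in ileum against duodenum (2.78% higher, 1.64% lower), and 1.13% in ileum against jejunum (0.769% higher, 0.357% lower).

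Between genotypes, the sign of the Igf2bp3 difference in IECs ran from negative in the duodenum to positive in the ileum, without a call. In the duodenum, Btnl2-KO libraries were at 6.03 and 9.43 CPM, within the WT range, and the log2 fold change was -0.67 (SE 0.43) with an edgeR adjusted p of 0.99997. It was -0.40 (SE 0.54) without replicate 1, the library that held Fabp6, and -1.01 (SE 0.57) without replicate 2, with edgeR adjusted p of at least 0.790. In the jejunum they were at 5.46, 8.60, and 4.995 CPM, also within the WT range, at 0.30 (SE 0.45) with an edgeR adjusted p of 0.823, and at 0.06 without the library that held Btnl2. In the ileum they were at 6.92, 7.29, and 12.9 CPM, above both WT libraries, at 1.30 (SE 0.37) with an edgeR adjusted p of 0.900; there 10.6% of genes lay above both WT libraries in all Btnl2-KO libraries. The ileal replicate without Fabp6 was the lowest of the 3, and without it the fold change was 1.45 with an edgeR adjusted p of 0.855. Of the genes tested, 0% were called in duodenum, 0% in jejunum, and 0.00774% in ileum (Btnl2 itself). The deleted gene was thus not called in duodenum, at 0.342 to 5.45 CPM in Btnl2-KO against 39.8 to 67.7 CPM in WT, nor in jejunum. A missing call in these segments therefore does not show equal levels.

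The noncoding RNA gave no call between genotypes in IECs either. It was at 1.09, 1.76, and 0.647 CPM in WT and 0.893 and 0.649 CPM in Btnl2-KO duodenum, at 0.762, 0.885, and 2.53 CPM and 1.12, 1.42, and 1.22 CPM in jejunum, and at 0.912 and 0.910 CPM and 0.404, 0.506, and 1.11 CPM in ileum. The groups overlapped in each segment. The library highest in Igf2bp3 was also the highest in the noncoding RNA in the 4 groups of 3 libraries, but not in the 2 groups of 2. Its log2 fold changes were -0.57 (SE 0.55), -0.13 (SE 0.49), and -0.38 (SE 0.52), with edgeR adjusted p of 0.99997, 0.933, and 0.901; in the jejunum the sign turned with limma-voom and without WT replicate 3. Per 100 CPM of Igf2bp3, the noncoding RNA was at 6.88 to 14.8 CPM in Btnl2-KO and 7.21 to 11.4 in WT duodenum, at 16.5 to 24.3 and 22.4 to 30.4 in jejunum, and at 5.83 to 8.62 and 20.5 to 30.9 in ileum. Only in the ileum did these ratios not overlap, with Btnl2-KO below WT. That rests on 3 against 2 libraries, with 7 to 43 counts of the noncoding RNA in Btnl2-KO and 25 in WT libraries. Among levels of single genes there, 9.82% had all Btnl2-KO libraries below WT, so such an order is common. Btnl2-KO replicate 1, which held Fabp6 at 0.231 CPM, is among these libraries. Igf2bp2 was at 13.7 to 61.1 CPM in all IEC libraries, with log2 fold changes of 0.49 (SE 0.45), -0.10 (SE 0.20), and 0.22 (SE 0.19) in the 3 segments and edgeR adjusted p of at least 0.871.

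**Figure D3:**
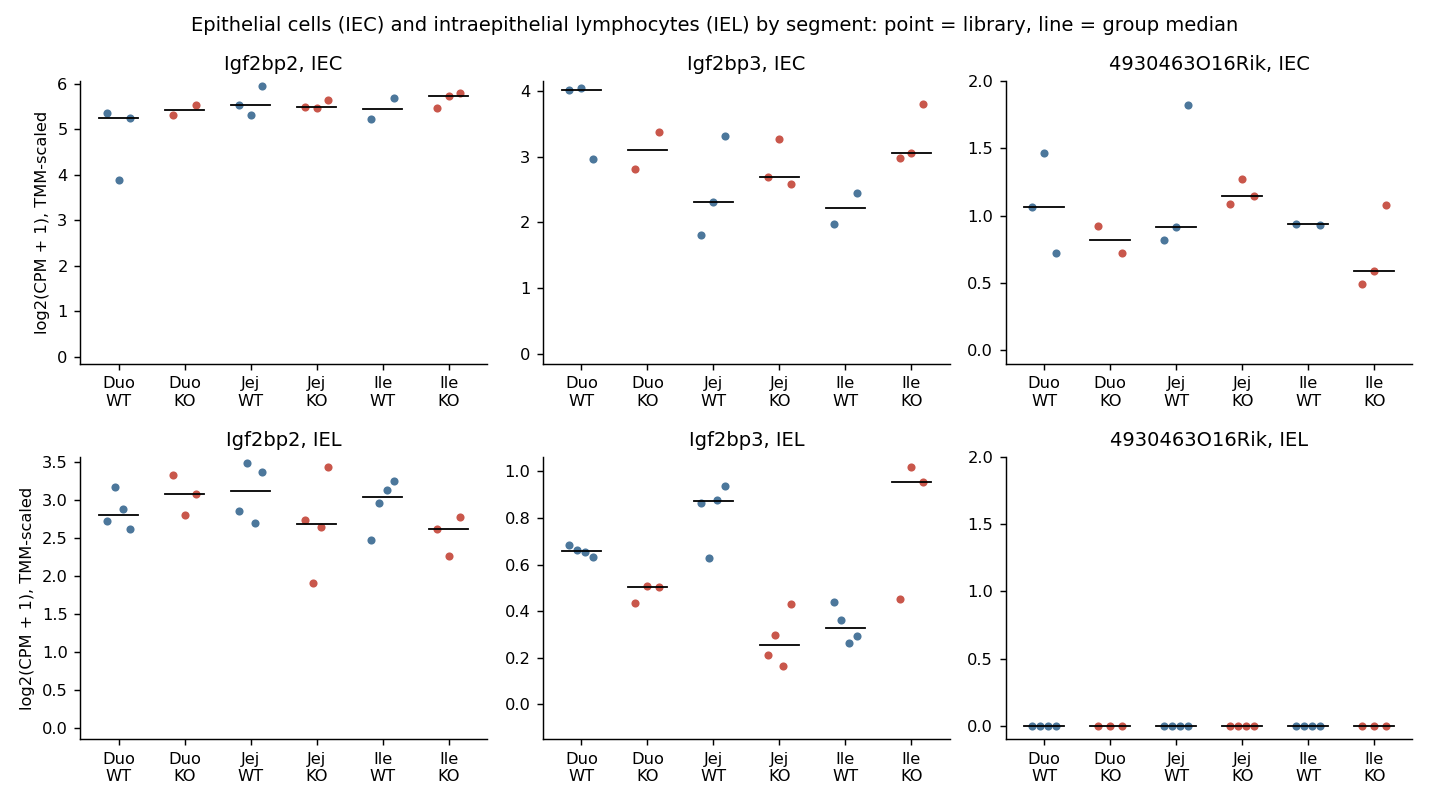
Igf2bp2, Igf2bp3, and 4930463O16Rik in IECs (top) and γδ IELs (bottom), as log2(CPM + 1) with its own scale in each panel of the first 2 columns, by segment and genotype (red, Btnl2-KO; blue, WT). In IELs Igf2bp3 reaches at most 1.03 CPM and its Btnl2-KO libraries lie below WT in duodenum and jejunum and above WT in ileum, and 4930463O16Rik is at 0 in all 22 libraries.

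In γδ IELs, Igf2bp2, Igf2bp3, and the noncoding RNA were at lower levels than in IECs and tissue. The IEL libraries were a separate set, from older mice than the IECs, and the kit used for each set is not settled. Cell type therefore cannot be told apart from age and library preparation here. The noncoding RNA had 0 counts in all 22 libraries, which allows up to 0.223 CPM in the library of the lowest total (3 counts), and the IEL libraries held pan-epithelial markers at 605 to 9033 CPM beside 6993 to 14490 CPM of 5 T cell markers. Igf2bp1 had at most 3 counts. Igf2bp2 was at 2.76 to 10.3 CPM, and Igf2bp3 at 0.122 to 1.03 CPM, or 2 to 21 counts per library, so that counting error is large in each of its values.

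Igf2bp3 in IELs separated the genotypes in each segment, in directions that differed. In the jejunum it was at 0.160, 0.230, 0.122, and 0.348 CPM in Btnl2-KO and at 0.819, 0.545, 0.840, and 0.915 CPM in WT libraries, and the groups did not overlap. The log2 fold change was -1.77 (SE 0.45) with an edgeR adjusted p of 0.583, and -1.61 without replicate 3, which held Fabp6. The gene was above the count minimum through the WT libraries alone, with 16 to 21 counts against 2 to 8; with no filter on low counts the value was -1.79 (SE 0.49) with an edgeR adjusted p of 0.712. In this comparison 0.00794% of genes were called (Btnl2 alone) and 1.82% had all Btnl2-KO libraries below WT. In the duodenum, Btnl2-KO libraries were at 0.351, 0.423, and 0.418 CPM and WT libraries at 0.606, 0.584, 0.574, and 0.550 CPM. There the gene was below the count minimum, and the mean log2(CPM + 1) was 0.18 lower in Btnl2-KO (exact two-sided permutation test, p = 0.0286, the smallest the design allows, adjusted p = 0.152); 1.81% of genes above the minimum lay so, and 0.00789% were called.

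In the ileum the order was the other way. Btnl2-KO libraries were at 0.370, 1.03, and 0.936 CPM and WT libraries at 0.358, 0.287, 0.200, and 0.226 CPM, and the lowest Btnl2-KO library, replicate 1, and the highest WT library, replicate 1, held 6 counts each. The mean log2(CPM + 1) was 0.47 higher in Btnl2-KO (exact two-sided permutation test, p = 0.0286, the smallest the design allows, adjusted p = 0.152), and 2.79% of genes above the minimum lay so. Of 12604 ileal genes, edgeR called 0, with 1108 under 0.05 before adjustment. It thus did not call Btnl2 itself, at 0 to 0.123 CPM in Btnl2-KO and 2.47 to 3.58 CPM in WT ileum. Calls by DESeq2 numbered 2 higher and 219 lower, and by limma-voom 391 higher and 816 lower. Pan-epithelial markers summed to 1014 to 3635 CPM in Btnl2-KO and 3461 to 9033 CPM in WT ileum, to 605 to 5479 against 2044 to 5649 CPM in jejunum, and to 3397 to 5788 against 3311 to 5303 CPM in duodenum, and their part in these differences was not tested.

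A test of the difference between segments, added after the values were seen, took all IEL libraries in one edgeR fit. The Btnl2-KO effect on Igf2bp3 was 3.30 log2 units higher in ileum than in jejunum (SE 0.62, edgeR adjusted p = 0.296). It was 2.05 higher than in duodenum (SE 0.65, edgeR adjusted p = 0.716). The gene was above the count minimum of that fit only through WT jejunum, WT duodenum, and Btnl2-KO ileum, where it was high. The signs that led to this test came from the same libraries, so it gives no separate support. Of 13360 genes, 0 passed an FDR below 0.05 in these interactions, so no difference passed after adjustment. The same test in IECs gave 1.97 (SE 0.72) for ileum against duodenum, with an edgeR adjusted p of 0.996.

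Among WT IELs, Igf2bp3 was lower in ileum than in jejunum by a log2 fold change of -1.50 (SE 0.43), which passed the call in edgeR with an adjusted p of 0.0243. The gene was above the count minimum through jejunum alone, with 16 to 21 counts against 3 to 6 in ileum; with no filter on low counts the value was -1.52 (SE 0.51) with an edgeR adjusted p of 0.0483. The groups did not overlap, which was so in this direction for 18.7% of genes, and 21.7% of genes were called, 10.9% lower. The call was lost without ileum replicate 2 or 3 or jejunum replicate 1, 3, or 4, where the edgeR adjusted p reached 0.0734. DESeq2 gave no adjusted p, and with both genotypes in one fit the gene was below the count minimum and was not fitted. Against duodenum, WT ileum was 0.32 lower in mean log2(CPM + 1) (exact two-sided permutation test, p = 0.0286, the smallest the design allows, adjusted p = 0.152), with no overlap, as for 3.39% of genes, where 2.16% were called. Jejunum against duodenum, where jejunum again carried the gene over the minimum, gave a log2 fold change of 0.40 (SE 0.37) with an edgeR adjusted p of 0.425. Igf2bp2, the family member of adult tissues, showed no call in any IEL comparison: its log2 fold changes between genotypes were 0.25 (SE 0.26), -0.39 (SE 0.40), and -0.46 (SE 0.34) in duodenum, jejunum, and ileum, with edgeR adjusted p of at least 0.681.

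**Figure D4:**
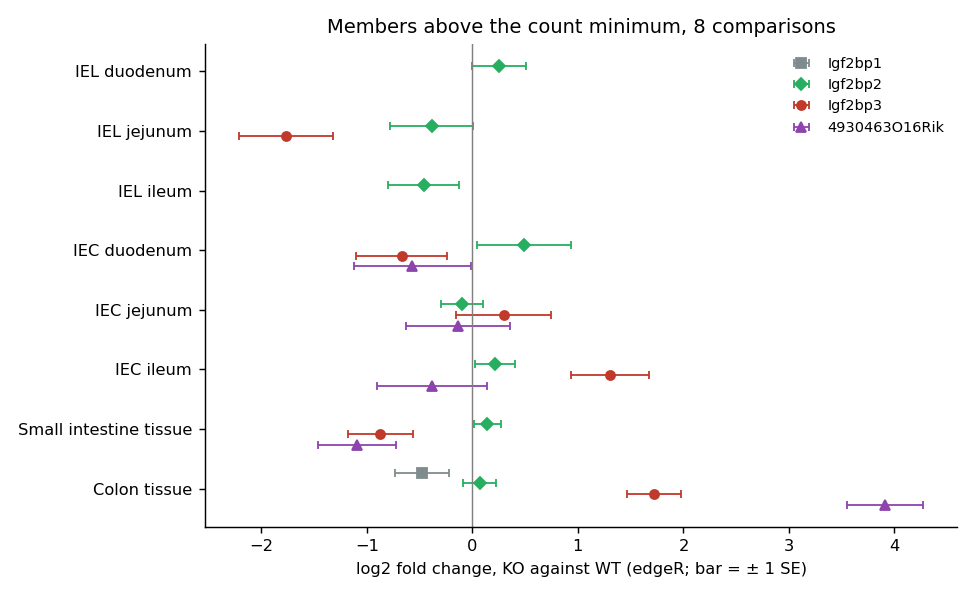
Log2 fold change of Btnl2-KO against WT (x axis, bar ± 1 SE) for each member above the count minimum in each of the 8 comparisons (y axis). Igf2bp3 runs from -1.77 in jejunal IELs to 1.72 in colon tissue, 4930463O16Rik is at 3.91 in colon tissue and between -1.09 and -0.13 in the other 4 comparisons drawn, and Igf2bp2 stays between -0.46 and 0.49.

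Single γδ IELs gave a second readout of the same cell type, with UMIs counted, no replicates, and possibly the same mice. In 3617 to 4678 cells per library with at least 500 genes, and medians of 4870 to 5463 UMIs per cell, Igf2bp2 had 113 to 157 UMIs per library. Scaled to all UMIs of the library (CPM), that is 7.04 (95% exact Poisson interval 5.99 to 8.24) in WT and 6.40 (5.36 to 7.59) in Btnl2-KO duodenum, 5.89 (4.85 to 7.08) and 5.86 (4.87 to 7.00) in jejunum, and 5.50 (4.54 to 6.61) and 4.84 (4.06 to 5.73) in ileum. The intervals of the genotypes overlapped in each segment.

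Igf2bp3 had 9 to 26 UMIs per library, each in a separate cell. It was at 1.17 CPM (95% exact Poisson interval 0.762 to 1.71) in WT and 0.722 (0.404 to 1.19) in Btnl2-KO duodenum, at 0.573 (0.286 to 1.03) and 0.672 (0.368 to 1.13) in jejunum, and at 0.434 (0.199 to 0.824) and 0.783 (0.491 to 1.19) in ileum. The values were lower in Btnl2-KO in duodenum and higher in ileum, the signs of the bulk IEL libraries, with which mice may be shared, but not lower in jejunum, and all pairs of intervals overlapped. Igf2bp1 and 4930463O16Rik had 0 or 1 UMI per library, and a count of 0 allows 0.107 to 0.156 CPM (3 UMIs). Intervals cover counting error only, and 19 to 31 barcodes were shared between each pair of libraries. Cd3e, a T cell gene, had a UMI in 3600 to 4660 cells per library, and Btnl2, an epithelial gene, had 27, 9, and 6 UMIs in WT duodenum, jejunum, and ileum and 0 or 1 in Btnl2-KO libraries, a count like that of Igf2bp3; a share of Igf2bp3 UMIs from free RNA was not tested.

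**Figure D5:**
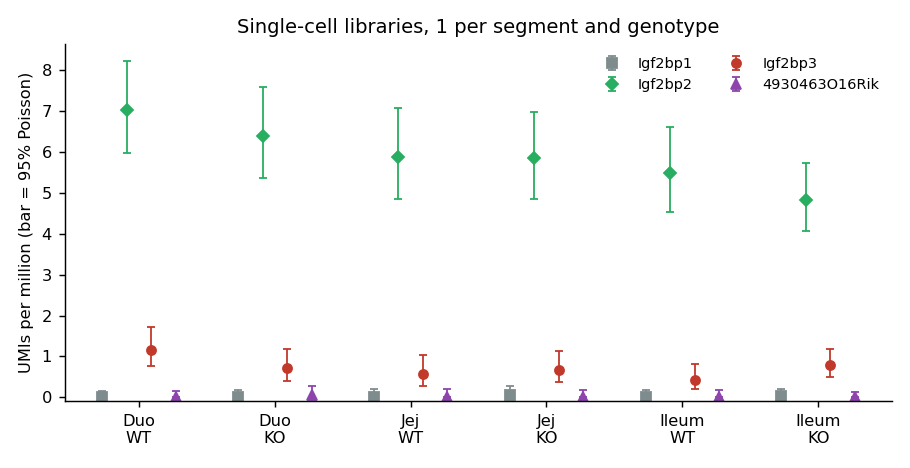
UMIs scaled to library size (CPM, y axis, bar = 95% exact Poisson interval, counting error only) of the 4 genes in the 6 single-cell γδ IEL libraries (x axis, segment and genotype, 1 library each). Igf2bp2 lies at 4.84 to 7.04, Igf2bp3 at 0.434 to 1.17, and Igf2bp1 and 4930463O16Rik at or near 0, with overlapping intervals between genotypes.

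Among genes of the pathways around the Igf2bp proteins, edgeR made no call between genotypes in tissue. In colon, edgeR called 0 of 13 genes of the insulin-like growth factor axis (median log2 fold change -0.03). It called 0 of 10 measured genes of the let-7, Lin28, and oncofetal group (median -0.01) and 0 of 11 partners of the Igf2bp ribonucleoprotein (median 0.03). Also called were 0 of 13 genes of N6-methyladenosine writing, removal, and reading (median -0.03) and 0 of 13 measured transcripts known as targets (median 0.02). The median of all genes was 0.01, and the list members ranged from -0.83 to 0.63. Before adjustment, 3 of the 58 list genes measured were under 0.05 in edgeR, and neither DESeq2 nor limma-voom called any. In small intestine, edgeR called 0 of 58, with 15 under 0.05 before adjustment, while DESeq2, limma-voom, and edgeR with all tissue libraries in one fit or without WT replicate 1 each called 1 gene, lower in Btnl2-KO. The lists had medians of -0.33, -0.06, -0.12, 0.06, and -0.23, beside -0.03 over all genes. Over all 8 comparisons of genotypes, edgeR called 0 list genes, DESeq2 called 2, and limma-voom called 8. Of the 8, 3 higher and 4 lower were in ileal IELs, where limma-voom called many genes. Over all genes, edgeR called 0.0269% in colon and 0.0202% in small intestine. At such shares, 0 of 58 list genes says nothing of the pathways.

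Between WT colon and small intestine, edgeR called 13 of 58 list genes (22.4%), 6 higher and 7 lower, near the 27.6% of all genes called (12% higher, 15.6% lower), so the calls below describe single genes and say nothing of the lists. Of 13 genes of the growth factor axis, 4 were higher in colon and 1 was lower. Igfbp2, a binding protein of the growth factors, was higher in colon by 2.46 (SE 0.57), Irs1, an insulin receptor substrate, by 1.23 (SE 0.18), and the insulin receptor Insr by 0.96 (SE 0.11), on the log2 scale. The growth factor Igf1 was lower, at -0.74 (SE 0.28). Of the oncofetal group, the imprinted gene Dlk1, at 3.81 (SE 0.85), and the chromatin protein gene Hmga2, at 0.80 (SE 0.22), were higher, and Plagl1, at -1.70 (SE 0.20), and Arid3a, at -0.76 (SE 0.10), were lower. Of the partners, Ybx1 was lower in colon at -0.64 (SE 0.14). Of the known targets, Foxm1, at -0.94 (SE 0.21), Ccnd1, at -0.94 (SE 0.24), and Actb, at -0.89 (SE 0.16), were lower. Hmga2, which is on this list too, was the 1 target called higher. None of the 13 genes of N6-methyladenosine writing, removal, and reading was called.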

How the data were processed

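Bulk libraries of tissue, IECs, and γδ IELs and single-cell libraries of γδ IELs were grouped by the sample labels. The authors mapped bulk reads with ArrayStudio, estimated sense-strand exon reads per gene with RSEM, and deposited expected counts without normalization; the labels' processing notes name GRCm38. Expected counts can split a read between overlapping genes: Igf2bp3 was not a whole number in 27 of 27 tissue and 16 of 16 IEC libraries but in 0 of 22 IEL libraries. The study's methods name the SMARTer and Nextera kits and the labels a stranded KAPA kit. For single cells the authors deposited UMI counts per gene and barcode, not normalized.

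Expected counts were rounded. Identifiers without a symbol (100 of 24475, 0.254% to 9.24% of counts per library) stayed in the fits. From the IEL counts, 1 column that matched no sample was not used. Genes were tested where the number of libraries with 10 or more counts reached the size of the smaller group, in edgeR 4.0.16 (quasi-likelihood, TMM, Benjamini-Hochberg), with calls at FDR below 0.05 and fold change above 1.5; the script was tested on simulated data with known changes. Members below the minimum were compared by exact permutation on log2(CPM + 1), with a pseudocount of 1. Library depths, given with the results, limit values of a few counts. Correlations used pairs with median counts of at least 5. Single cells needed 500 genes; no mitochondrial gene was among the rows, so no such filter applied, and doublets were not called. Gene positions are from GENCODE M21, shared stretches from BLAST 2.17.0. Alternatives were DESeq2 1.42.0, limma-voom 3.58.1, RLE factors, 2 other filters, one fit per table, each library left out, and other pseudocounts. Named genes were the members, Btnl2, called list genes (up to 3 per direction), 2 neighbours per side, and the 5 genes most like each member; Car1, Gata4, Fabp6, and Hoxd13 were named after their values were seen. The members and lists were chosen with earlier results of these data known.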

Additional observations from a re-analysis of the deposited data

Results flagged for a closer look

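Of 21 sets of at least 4 libraries with 10 or more counts of a member, 4 held a library whose gap to the next one was above Dixon's critical value; chance flags about 1 in 20. In Btnl2-KO colon, replicate 2 was far above the other 6 libraries for both Igf2bp3 (84.1 CPM) and 4930463O16Rik (29.6 CPM). In WT small intestine, replicate 5 was far above the rest for 4930463O16Rik (4.78 CPM), and replicate 3, which also held Car1, for Igf2bp1 (0.701 CPM).

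In γδ IELs, every Btnl2-KO library lay above WT for Igf2bp3 in ileum and below WT in jejunum and duodenum. Of genes above the count minimum, 2.79% lay so in ileum, 1.82% in jejunum, and 1.81% in duodenum. In ileum the lowest Btnl2-KO and the highest WT library held 6 counts each. The difference of the Btnl2-KO effects was 3.30 log2 units between ileum and jejunum and 2.05 between ileum and duodenum, on 2 to 21 counts per library. In edgeR's interaction test, with 3 or 4 libraries per group, neither passed after adjustment (adjusted p of 0.296 and 0.716). The gene was above the count minimum of that fit only through groups where it was high.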

How the results depend on the processing

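Under the alternatives there were 766 values, for the members, Btnl2, and correlations of member pairs. Of these, 706 kept their direction and their side of the threshold, or, with no test, stayed within the spread between replicates. A call or passing p was lost in 25 and gained in 12, 19 reversed, and 4 with no test moved by more than that spread. Many lost calls were of Btnl2, which in jejunal IELs kept its call in 5 of 14 alternatives. No paired analysis was possible because the labels give each library its own number and share none between groups. Members called between genotypes in small intestine rose from 0 to 1 without the WT libraries that hold Car1, and calls of Igf2bp1 and Igf2bp2 in WT colon against small intestine fell from 2 to 1 without them and were 1 to 2 with 1 library left out. Leaving out the libraries that hold Car1 was chosen after the values were seen. In WT IELs, ileum against jejunum, the count was 0 to 1 with 1 library left out; in WT IECs, ileum against duodenum, it was 1 with DESeq2 and 1 with limma-voom, and 0 to 1 with 1 library left out. Relations within groups passing the threshold fell from 1 to 0 with log2(CPM + 0.5) and to 0 without TMM. Pathway genes called between genotypes numbered 2 with DESeq2, 8 with limma-voom, and 1 with 1 fit per table, from 0.

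The cause of the reversals was not tested. With 1 library left out, the log2 fold change between genotypes in IEC jejunum ran from -0.045 to 0.97 for Igf2bp3, from -0.25 to 0.12 for Igf2bp2, and from -0.44 to 0.60 for 4930463O16Rik, which was 0.00051 with limma-voom. For Igf2bp2 it ran from -0.0016 to 0.46 in IEC ileum and from -0.0018 to 0.18 in colon. For 4930463O16Rik in WT IECs it ran from -0.48 to 0.65 for jejunum against duodenum, from -0.61 to 0.11 for ileum against duodenum, and from -0.86 to 0.15 for ileum against jejunum. For ileum against jejunum in WT IECs, Igf2bp3 ran from -0.79 to 0.20 and Igf2bp2 from -0.41 to 0.052, and with both genotypes in one fit they were 0.10 and 0.0088. With both genotypes, Igf2bp2 in IELs was -0.0093 for jejunum and -0.17 for ileum against duodenum, and with limma-voom 0.0038 for ileum against jejunum. Igf2bp2 with Igf2bp1 in WT colon gave r = -0.025 without TMM. Counts of 2 to 21 limit Igf2bp3 in IELs.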
